A study of Mus musculus with 16 samples.

Results

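RNA of silenced mouse cortical neurons was set against RNA of neurons at basal state, in cultures that all carried the same control hairpin. The comparison takes 7 of the 16 samples of the series, 3 silenced shControl libraries and 4 basal shControl libraries. It covers the 26371 gene symbols found in both deposited count tables, of which 18944 held enough counts to be tested. Both groups were primary cortical neurons of C57/BL6 embryos of day 17.5 to 19.5, and the labels describe each biological replicate as 1 pooled litter. An adeno-associated virus (AAV) carrying shControl was added on day 8 in vitro (DIV8), and RNA was collected on DIV13. The silenced cultures received tetrodotoxin (TTX) at 1 to 2 µM for 24 hours from DIV12 and D-AP5 at 100 µM for 6 hours. The labels do not say whether the basal cultures received a vehicle, and they give neither the promoter of the hairpin nor the sex of the embryos. All silenced libraries stand in 1 deposited table and all basal libraries in the other. Treatment and table (culture series) are therefore confounded, and the 2 cannot be told apart in any difference given here.

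Tetrodotoxin blocks voltage-gated sodium channels and so stops action potentials, and D-AP5 blocks the NMDA type of glutamate receptor. In cortical neurons, firing and calcium entry drive immediate early genes such as Fos, which encode transcription factors, and then later genes for secreted and synaptic proteins such as the neurotrophin Bdnf. Long activity blockade is known as a trigger of homeostatic scaling, in which neurons adjust their synapses and channels, and it is used to bring activity-regulated transcripts to a low level before a stimulus.

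Total counts were 32995121 to 38421417 in the silenced libraries and 28940314 to 56299817 in the basal libraries. Pearson's r between log2 counts-per-million values (CPM), across genes of library pairs, lay between 0.968 and 0.989 within the silenced group, 0.952 and 0.986 within the basal group, and 0.931 and 0.964 between them. On the first principal component, with 49.3% of the variance, the silenced libraries stood at -59.6, -29.3 and -71.9 and the basal libraries at 69.6, -6.36, 73.1 and 24.5. The second component, with 22.6%, held basal replicates 2 and 4 at -69.6 and -43.0 and the other 5 libraries between 13.7 and 28.3. Basal replicates 1 and 3 thus stood apart from basal replicates 2 and 4 on both components. Basal replicate 4 also had 0.126 CPM of Xist, the transcript of the inactive X chromosome, against 225 to 661 CPM in the other 6 libraries, and its 179 CPM summed over Y-linked genes were the highest, against 68.8 to 127 CPM. A pooled litter would usually hold both sexes, so these values go against that description for basal replicate 4. Without it, 244 genes were higher and 309 lower. Nup153, the target of the other hairpins of the series, had 63.3, 51.1 and 60.5 CPM in silenced cultures and 97.3, 53.1, 79 and 57.6 CPM in basal ones, with a log2 fold change of -0.30 (SE 0.23, edgeR BH-adjusted p = 0.469). All 18 excitatory neuron markers were tested, and they summed to 3350, 3870 and 2520 CPM in silenced and 2760, 2400, 2260 and 2630 CPM in basal libraries.

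At a false discovery rate (FDR) of 0.05 in the edgeR quasi-likelihood test, 593 genes were higher in silenced cultures (3.13% of those tested) and 662 were lower (3.49%), 1255 in all (6.62%). The shares of 3.13% and 3.49% are the background for the counts of every gene list below. The median log2 fold change of all genes, silenced over basal, was -0.03. Libraries of the 2 states did not overlap for 2317 genes in the higher direction (12.2%) and 2073 in the lower direction (10.9%). The counts moved strongly when single libraries were left out, though no called gene changed sign in these fits. Each such fit also has fewer libraries, so a lost call does not show that the library left out carried the change. Without silenced replicate 1, 52 genes were higher and 44 lower, and without silenced replicate 3, 95 and 115. Without basal replicate 1, 3 or 4 the counts were 304 and 303, 237 and 258, and 244 and 309. Without basal replicate 2, they were 666 and 1077. Such counts, here and for the lists below, hold every gene past FDR in that fit. They include genes not called with all libraries, so they are not counts of calls kept. With every library left out in turn, 91 genes stayed past FDR, 50 higher and 41 lower. Of 87 called genes among the 148 named by rule, 15 did so: Ccn2, Kcnc2, Tmem132c, Icam1, Cry1, Aspdh, Ankrd37, Cox6b2, Dusp8, Crtc1, Prrt1, Kcnv1, Shank3, Abhd11os and Dlgap3. The other called genes named by rule numbered 72, and each missed FDR without at least 1 library. The largest adjusted p of each over the libraries left out lay between 0.0508 and 0.191, and for 62 of them it came without silenced replicate 1.

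The largest falls included genes of secreted, adhesion and immune proteins. Ccn2 encodes a secreted matricellular protein found in the deepest cortical layer of the mouse (chromosome 10, 24595442 to 24598683, mm10). It had 0.639, 0.389 and 0.427 CPM in silenced cultures, against 8.98, 10.7, 14.1 and 13.2 CPM in basal cultures, a log2 fold change of -4.59 (SE 0.31, edgeR BH-adjusted p = 0.00144). The basal libraries were all far above the silenced ones and close to each other, and antisense neighbours overlap 23.2% of its exons. Icam1, an adhesion molecule that leukocyte integrins bind, had 0.262, 0.448 and 0.16 CPM in silenced and 15.1, 6.8, 22.2 and 12 CPM in basal cultures (-5.59, SE 0.54, edgeR BH-adjusted p = 0.00298). Tmem132c, a transmembrane protein gene, had 0.639, 0.717 and 1.12 CPM in silenced and 16.2, 9.25, 12.4 and 19.1 CPM in basal cultures (-4.10, SE 0.36, edgeR BH-adjusted p = 0.0024). These 3 genes stayed past FDR with every library left out in turn. H2-Ab1, the beta chain of class II antigen presentation, had the lowest log2 fold change of the genes named by rule, -6.08 (SE 1.00, edgeR BH-adjusted p = 0.0151). Its levels were 0.32, 0.179 and 0.16 CPM in silenced and 27.2, 1.87, 23.5 and 7.52 CPM in basal libraries, so basal replicates 1 and 3 were more than 3 times as high as replicate 4 and replicate 2 was lowest. H2-Ab1 was not past FDR without silenced replicate 1 or 3 (edgeR BH-adjusted p from 0.0722 to 0.0776). Others of the 12 largest falls were Prrg4 (-5.83), Adamtsl4 (-5.80), Cox6b2 (-5.22), Cd109 (-5.19), Abhd11os (-4.00), Flnc (-3.74) and Crhbp (-3.66), as log2 fold changes. Of these, Prrg4, Adamtsl4, Cd109, Flnc and Crhbp were not past FDR without silenced replicate 1 (edgeR BH-adjusted p from 0.0567 to 0.165).

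**Figure D1:**
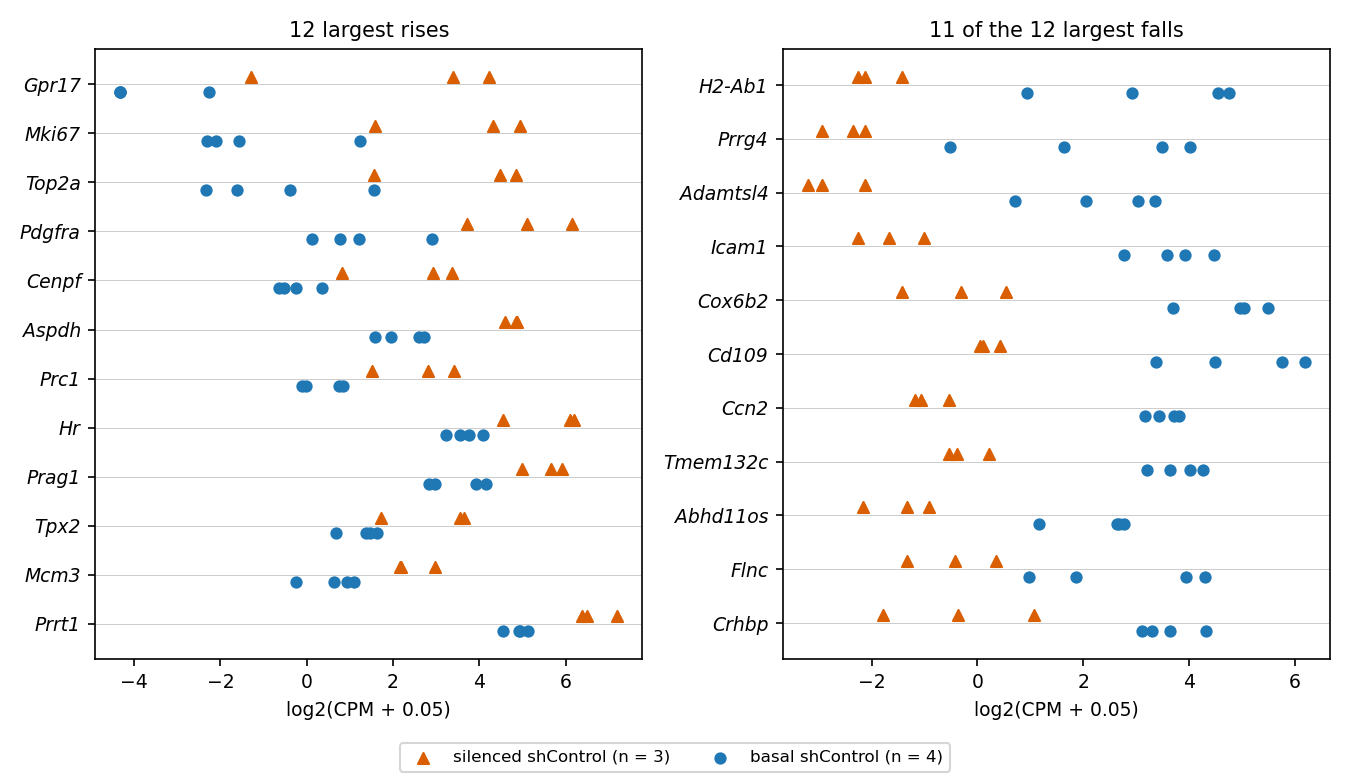
Levels of the 12 largest rises (left) and 11 of the 12 largest falls (right) as log2(CPM + 0.05), 1 triangle per silenced shControl library (n = 3) and 1 circle per basal shControl library (n = 4). The 3 silenced libraries lie on 1 side of all 4 basal libraries for every gene by the rule that chose them, and silenced replicate 2 is the lowest triangle for Gpr17 (0.359 CPM) and Mki67 (2.93 CPM).

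Genes of dividing cells and of the oligodendrocyte lineage led the rises. Mki67, a marker of cycling cells (chromosome 7, 135689784 to 135716361), had 30.9, 2.93 and 20 CPM in silenced cultures, against 0.184, 0.288, 0.152 and 2.3 CPM in basal cultures (4.64, SE 1.05, edgeR BH-adjusted p = 0.0367). Silenced replicate 2 lay far under the other silenced libraries and close to basal replicate 4. Of 16 proliferating progenitor markers tested, 8 rose and none fell, with a median log2 fold change of 1.16, while 5 had a log2 fold change below 0. The 8 that rose are genes of the cell cycle. The summed level of the list was 495, 795 and 281 CPM in silenced and 502, 450, 681 and 558 CPM in basal libraries, which overlapped. Top2a, which untangles replicated chromosomes, changed by 4.18 (SE 1.03, edgeR BH-adjusted p = 0.0469), and the mitotic kinase gene Cdk1 by 4.03 (SE 0.71, edgeR BH-adjusted p = 0.0187). The number that rose was 0, 8 and 0 without silenced replicates 1, 2 and 3 in turn, and 2, 5, 1 and 6 without basal replicates 1 to 4. Without silenced replicate 2, 3 others of the list fell, the progenitor genes Vim, Eomes and Sox2. With shNup153-2, 9 of the 16 rose and 3 fell. Of 14 oligodendrocyte lineage markers tested, of 17 in the list, 4 rose and none fell (median 0.98). Pdgfra, the receptor that marks oligodendrocyte progenitors, had 70.6, 13 and 34.5 CPM in silenced and 2.26, 1.66, 1.03 and 7.42 CPM in basal cultures (3.67, SE 0.74, edgeR BH-adjusted p = 0.0262). Gpr17, a receptor of maturing progenitors, had 18.7, 0.359 and 10.4 CPM in silenced libraries, and in basal libraries it was at 0 in 3 and at 0.157 CPM in replicate 4 (7.99, SE 1.44, edgeR BH-adjusted p = 0.0202). Mag, the gene of a myelin protein, changed by 3.38 at very low levels. Its means were 0.466 CPM in silenced and 0.0452 CPM in basal libraries. The number of lineage markers that rose was 0, 2 and 0 without silenced replicates 1, 2 and 3 in turn, and 0, 4, 0 and 2 without basal replicates 1 to 4. The 2 without basal replicate 4 include Sox10, which was not called with all libraries. Without basal replicate 2, the myelin genes Cnp and Mbp fell. In bulk RNA, fewer cells of a type and less RNA per cell cannot be told apart.

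Outside these groups, Prrt1, which encodes a partner protein of AMPA receptors, was among the largest rises and stayed past FDR with every library left out. It had 89.7, 147 and 83.2 CPM in silenced cultures, against 30.9, 23.3, 30.4 and 34.7 CPM in basal cultures (1.84, SE 0.23, edgeR BH-adjusted p = 0.00671). Aspdh also stayed past FDR throughout, with 29.3, 28.9 and 24.1 CPM in silenced and 3.82, 6.01, 2.92 and 6.57 CPM in basal cultures (2.51, SE 0.29, edgeR BH-adjusted p = 0.00551). Hr, a corepressor of nuclear receptors, had 68.7, 23.4 and 72.9 CPM in silenced and 13.6, 16.8, 11.6 and 9.31 CPM in basal cultures (2.10, SE 0.37, edgeR BH-adjusted p = 0.0191). For all 3 genes the lowest silenced library lay above the highest basal library, as the rule that chose them requires. Hr was not past FDR without silenced replicate 1 or 3 or without basal replicate 3 (edgeR BH-adjusted p from 0.052 to 0.09). The other rises named for size were Cenpf (3.00), Prc1 (2.38), Prag1 (1.99), Tpx2 (1.90) and Mcm3 (1.84), of which Cenpf, Prc1 and Tpx2 act in mitosis and Mcm3 in DNA replication. None of these 5 was past FDR without silenced replicate 1 (edgeR BH-adjusted p from 0.0977 to 0.173).

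Of 34 immediate early genes tested, 3 fell and none rose, against 3.49% lower and 3.13% higher among all genes tested. Log2 fold changes were below 0 for 23 of the 34, with a median of -0.41. For 7 of the 34 the silenced libraries lay lower without overlap, against 10.9% of all genes tested. The 3 that fell were Nr4a2, an orphan nuclear receptor, Btg2, an antiproliferative factor, and Maff, a small Maf transcription factor. Nr4a2 had 4.62, 4.18 and 6.12 CPM in silenced and 10.8, 12.1, 11.5 and 11.7 CPM in basal cultures (-1.21, SE 0.20, edgeR BH-adjusted p = 0.0161). Btg2 had 8.98, 12.1 and 8.09 CPM in silenced and 32.4, 18.8, 42.2 and 22.6 CPM in basal cultures (-1.57, SE 0.30, edgeR BH-adjusted p = 0.0232). Maff changed by -2.24 (SE 0.56, edgeR BH-adjusted p = 0.0488). Fos, the best known gene of the group (chromosome 12, 85473890 to 85477273), had 1.16, 3.08 and 0.427 CPM in silenced and 18.1, 3.49, 23.3 and 6.54 CPM in basal libraries. Its groups did not overlap, but basal replicate 2 lay next to silenced replicate 2, and the log2 fold change of -3.05 (SE 0.82, edgeR BH-adjusted p = 0.061) missed the threshold. Levels of the neuronal factor Npas4 were 1.02, 1.41 and 2.35 CPM in silenced and 2.83, 2.45, 3.41 and 2.08 CPM in basal cultures, and those of Arc, which encodes a capsid-like synaptic protein, 4.77, 5.8 and 1.5 and 6.76, 2.88, 6.15 and 4.69 CPM. Both overlapped between the states, with log2 fold changes of -0.76 (SE 0.35, edgeR BH-adjusted p = 0.229) for Npas4 and -0.35 (SE 0.46, edgeR BH-adjusted p = 0.702) for Arc. Egr1 (-1.05) and Nr4a1 (-0.96) overlapped as well. The number of list members that fell was 0, 4 and 1 without silenced replicates 1, 2 and 3 in turn, and 1, 8, 2 and 2 without basal replicates 1 to 4.

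In the RefSeq promoters (250 bases before to 50 after a start, GRCm38.p6), the cAMP response element TGACGTCA, which reads the same on both strands, was present for 410 of 11987 tested genes with a promoter in the table (3.42%). It was found for 3 of 26 immediate early genes, among them Btg2 and Maff. Their 30-base windows are shown because both genes fell, with the element in capitals, as printed on the strand of the gene, at chr1:134079303-134079332 (minus strand) and chr15:79347480-79347509 (plus strand).
Btg2: gttcccaataaTGACGTCAgtgagcgatga
Maff: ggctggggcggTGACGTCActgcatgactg
Among all genes that were lower, the element was present for 17 of 493 (3.45%), a share near that of all genes tested.

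Late activity-regulated effectors and neuropeptides supplied further falls. Of 37 late effectors, 6 fell and none rose (median -0.75). Rgs4, a brake on G protein signalling, had 19.3, 31.5 and 26.5 CPM in silenced and 71.9, 111, 130.4 and 85.9 CPM in basal cultures (-1.95, SE 0.26, edgeR BH-adjusted p = 0.0075). Nrn1, which encodes the growth-promoting protein neuritin, had 35.6, 55.3 and 36.5 CPM in silenced and 126, 103, 112 and 118 CPM in basal cultures (-1.44, SE 0.19, edgeR BH-adjusted p = 0.00803). Neither gene's groups overlapped, and the silenced libraries were all under the lowest basal library. Both genes are named for their small p, so this follows in part from the choice. Among all genes tested, 10.9% lay lower without overlap. Tac1, the precursor of substance P, had 0.523, 1.17 and 0.748 CPM in silenced and 4.41, 6.73, 11.3 and 11.3 CPM in basal cultures (-3.37, SE 0.45, edgeR BH-adjusted p = 0.00777), and Sst, the precursor of somatostatin, 27.2, 39.4 and 27 CPM in silenced and 147, 205, 80.7 and 392 CPM in basal cultures (-2.73, SE 0.50, edgeR BH-adjusted p = 0.0208). Cdkn1a (-2.06) and Pthlh (-2.80) completed the 6. The number of late effectors that fell was 0, 9 and 3 without silenced replicates 1, 2 and 3 in turn, and 5, 10, 6 and 5 without basal replicates 1 to 4. Bdnf, with antisense overlap of 14.4% of its exons, had 2.09, 4.3 and 2.32 CPM in silenced and 3.88, 4.53, 9.71 and 5.63 CPM in basal cultures. Its silenced replicate 2 lay above basal replicate 1 (-1.03, SE 0.40, edgeR BH-adjusted p = 0.159). Nptx2, a secreted organizer of AMPA receptors, stood at -0.88 and also overlapped (edgeR BH-adjusted p = 0.119).

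Of 35 genes of neurotrophins, neuropeptides and dense-core processing, 7 fell and none rose (median -1.03). Besides Tac1, Sst and Crhbp, these included Adcyap1, the PACAP precursor (-2.44), Cartpt, the CART precursor (-3.17), and Nts, the neurotensin precursor (-2.35). Cartpt was at a low level, with means of 0.131 CPM in silenced and 1.22 CPM in basal cultures. Crhbp, which binds corticotropin-releasing hormone, had 0.727, 2.06 and 0.24 CPM in silenced and 8.58, 12.4, 9.8 and 20.04 CPM in basal cultures (-3.66, SE 0.66, edgeR BH-adjusted p = 0.02). Of the genes in the list, the number that fell was 0, 10 and 3 without silenced replicates 1, 2 and 3 in turn, and 5, 10, 6 and 5 without basal replicates 1 to 4. Several of these peptides mark interneurons. Of 20 GABAergic interneuron markers, 7 fell and none rose, with a median of -1.15. Reln, a secreted guide of cortical layering, had 28.7, 41 and 43.7 CPM in silenced and 298, 134, 108 and 188 CPM in basal cultures (-2.27, SE 0.36, edgeR BH-adjusted p = 0.0136). The transcription factor genes Dlx5 (-1.46) and Dlx6 (-1.11) fell too. The summed level of the markers was 803, 790 and 807 CPM in silenced and 1730, 2030, 1220 and 2150 CPM in basal libraries, which did not overlap. The number of markers that fell was 0, 8 and 0 without silenced replicates 1, 2 and 3 in turn, and 7, 11, 7 and 4 without basal replicates 1 to 4. The 7 without basal replicate 1 include Pvalb and Dlx2, and the 7 without basal replicate 3 include Nxph1. None of these was called with all libraries.

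**Figure D2:**
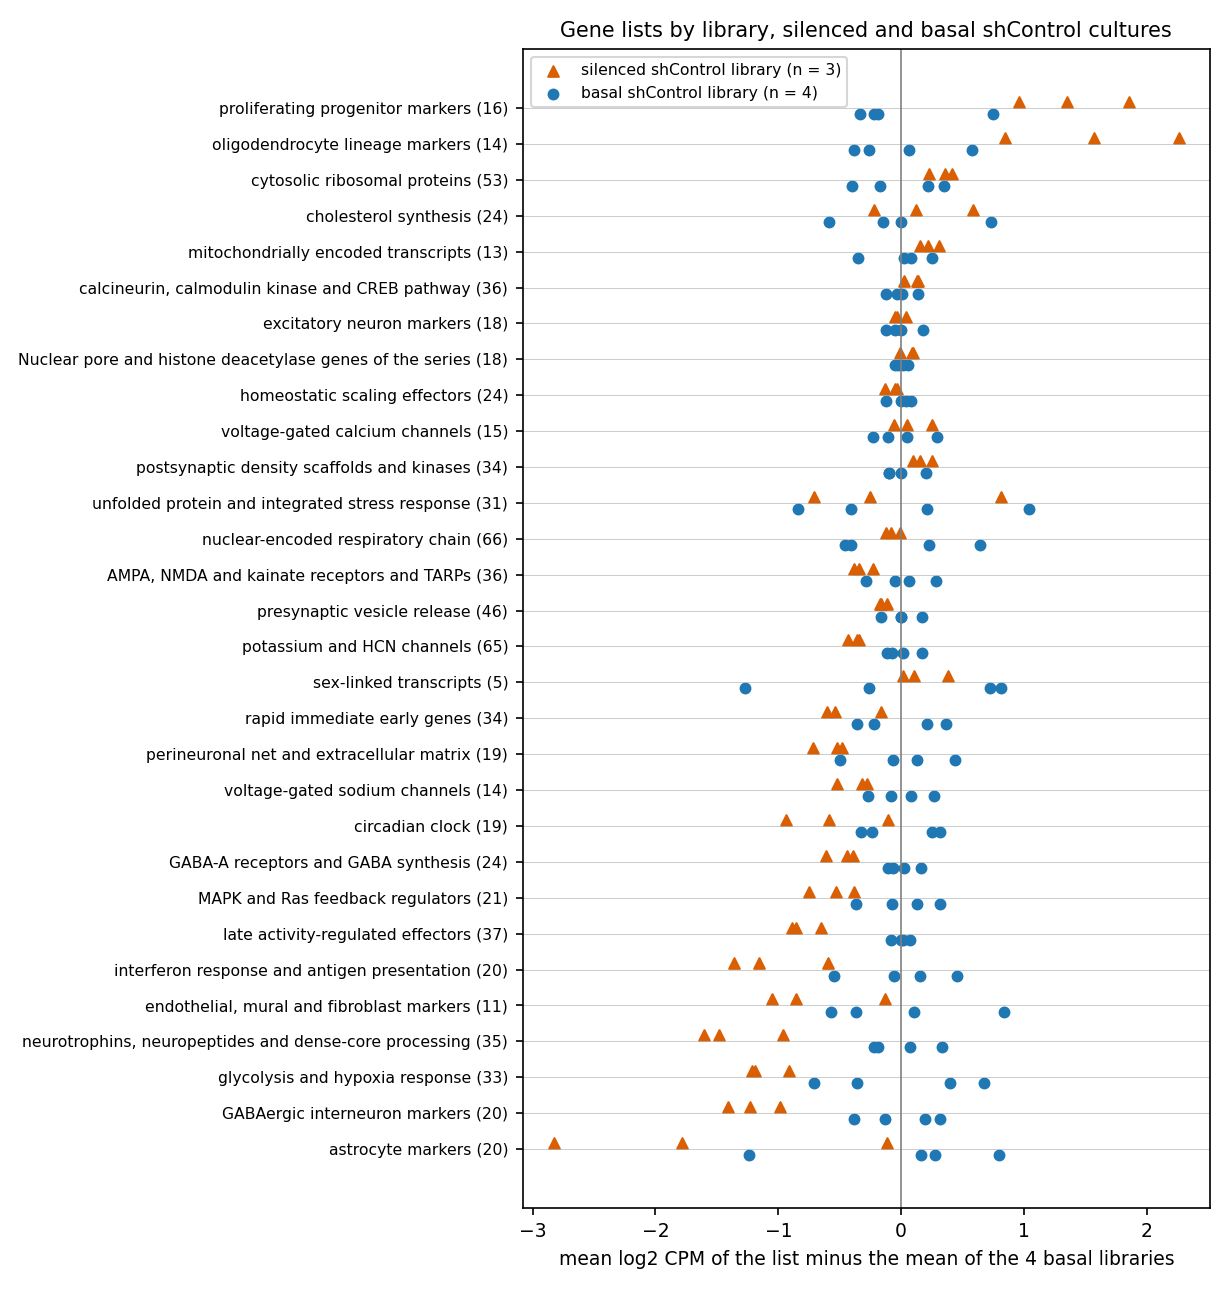
Each gene list with 5 or more tested members by library, as its mean log2 CPM minus the mean of the 4 basal libraries, with the number of tested members in brackets. Triangles are the 3 silenced and circles the 4 basal shControl libraries. Interneuron markers (median log2 fold change -1.15) and late effectors (-0.75) lie to the left without overlap, and the astrocyte list spreads widely within both states.

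At the excitatory synapse, 3 kainate receptor genes and 2 AMPA receptor genes fell while the obligatory NMDA receptor subunit rose. Of 36 genes of glutamate receptors and their partners, 8 fell and 2 rose (median -0.19). Grik3, a kainate receptor subunit, had 34, 20.6 and 33.9 CPM in silenced and 157, 80.8, 138 and 98.8 CPM in basal cultures (-2.0, SE 0.29, edgeR BH-adjusted p = 0.0099). Grik1 (-1.44) and Grik2 (-0.80) fell with it. Gria3 (-0.78) and Gria4 (-1.01), subunits of AMPA receptors, fell as well, as did the metabotropic receptors Grm2 (-2.43) and Grm8 (-1.54) and the AMPA receptor partner Cacng5 (-1.47). The abundant AMPA receptor subunits did not pass the test. Gria1 had 817, 808 and 540.5 CPM in silenced and 606, 576, 389 and 666 CPM in basal cultures (0.37, SE 0.24, edgeR BH-adjusted p = 0.399), and Gria2 stood at 0.13 (SE 0.20, edgeR BH-adjusted p = 0.759). Grin1, the NMDA receptor subunit present in every such receptor (chromosome 2, 25291181 to 25319187), had 362, 371 and 328 CPM in silenced cultures, against 188, 185, 184 and 198 CPM in basal cultures. Both groups were tight and apart, with a log2 fold change of 0.91 (SE 0.14, edgeR BH-adjusted p = 0.0119), and antisense neighbours overlap 13.5% of its exons. Grin1 was not past FDR without silenced replicate 1 (edgeR BH-adjusted p = 0.0806). Cnih2, which guides AMPA receptors to the surface, rose as well (1.06). The number in this list that fell was 0, 5 and 2 without silenced replicates 1, 2 and 3 in turn, and 4, 9, 4 and 4 without basal replicates 1 to 4. The number that rose was 0, 1 and 1 without silenced replicates 1, 2 and 3 in turn, and 2 without each basal replicate. The 2 without basal replicate 1 include Shisa7, which was not called with all libraries.

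Among postsynaptic density genes, rises outnumbered falls. Of 34 tested, 7 rose and 1 fell, while the median was -0.02. Shank3, a master scaffold of the density (chromosome 15, 89499623 to 89560261), had 126, 119.7 and 122 CPM in silenced cultures, against 59.4, 39.9, 54.4 and 46.8 CPM in basal cultures (1.29, SE 0.16, edgeR BH-adjusted p = 0.00695). Dlgap3, which links the scaffold to PSD-95, had 150.3, 219.6 and 149.9 CPM in silenced and 58.9, 62.9, 39.9 and 70.3 CPM in basal cultures (1.58, SE 0.23, edgeR BH-adjusted p = 0.0099). In both genes every silenced library was at least 2 times the highest basal library. Dlgap4 (0.92), Shank1 (1.09), Nlgn2 (0.77) and Nlgn3 (0.73) also rose, and the scaffold gene Homer3 fell (-1.31). Homer1, its activity-regulated relative, stood at 0.20 (SE 0.19, edgeR BH-adjusted p = 0.573). The number of these genes that rose was 2, 4 and 2 without silenced replicates 1, 2 and 3 in turn, and 5, 5, 4 and 3 without basal replicates 1 to 4. The list of homeostatic scaling effectors had 1 fall in 24 tested members, Itgb3, a subunit of an integrin that takes part in scaling (-2.53, SE 0.36, edgeR BH-adjusted p = 0.00951), and no rise. Among all genes tested, 3.49% were lower and 3.13% higher. Itgb3 was not past FDR without silenced replicate 1 (edgeR BH-adjusted p = 0.0662).

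Both enzymes of GABA synthesis fell and the neuronal chloride exporter rose. Of 24 genes of GABA-A receptors and GABA synthesis, 5 fell and 1 rose (median -0.54). Gad2, a GABA-synthesizing enzyme, had 130.3, 118 and 114 CPM in silenced and 270.1, 224, 202 and 235 CPM in basal cultures (-0.94, SE 0.16, edgeR BH-adjusted p = 0.0155). Gad1, the other such enzyme, had 129, 191 and 156 CPM in silenced and 334, 706, 349 and 489.5 CPM in basal cultures (-1.57, SE 0.30, edgeR BH-adjusted p = 0.0228). Both genes are also among the 20 interneuron markers, whose summed level of 790 to 807 CPM in silenced libraries lay below the 1220 to 2150 CPM of basal libraries. This sum includes Gad1 and Gad2 themselves, so their own falls are part of its difference. The part of the other markers in the fall of Gad1 and Gad2 was not tested. The receptor subunits Gabre (-2.95) and Gabrq (-1.91), at low levels, and the chloride importer Slc12a2 (-0.96) fell as well. Slc12a5, the chloride exporter of mature neurons, rose, with 285, 299.9 and 231 CPM in silenced and 152, 121, 146 and 142 CPM in basal cultures (0.96, SE 0.16, edgeR BH-adjusted p = 0.0155). The number that fell was 0, 2 and 0 without silenced replicates 1, 2 and 3 in turn, and 4, 5, 4 and 3 without basal replicates 1 to 4. Slc12a5 was not past FDR without silenced replicate 1 (edgeR BH-adjusted p = 0.0908).

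Potassium channel genes supplied more falls than rises. Of 65 tested potassium and HCN channel genes, 9 fell and 1 rose (median -0.33), against 3.49% lower and 3.13% higher among all genes tested. Kcnc2 encodes a fast channel that lets neurons fire at high rates, Kv3.2 (chromosome 10, 112271121 to 112467024). It had 9.998, 11.9 and 9.43 CPM in silenced cultures, against 51.2, 52.2, 49.3 and 49.6 CPM in basal cultures, and its log2 fold change was -2.28 (SE 0.15, edgeR BH-adjusted p = 0.00144). Among the genes named by rule, the spread within each group was small here and the states lay far apart. Kcnv1, a silent modifier subunit, had 17.8, 15.3 and 18.1 CPM in silenced and 53.4, 71.5, 39.8 and 56.9 CPM in basal cultures (-1.70, SE 0.21, edgeR BH-adjusted p = 0.00671). Genes of the M-current, Kcnq3 (-1.25) and Kcnq5 (-0.83), fell, as did Kcnab1 (-1.27), Kcnt2 (-0.95), Kcng2 (-2.13) and Kcnip1 (-1.21). The pacemaker channel gene Hcn2 rose, with 33.9, 32.9 and 39.4 CPM in silenced and 16.1, 16.1, 10.7 and 17.5 CPM in basal cultures (1.23, SE 0.19, edgeR BH-adjusted p = 0.0132). The number that fell was 2, 5 and 3 without silenced replicates 1, 2 and 3 in turn, and 6, 11, 5 and 8 without basal replicates 1 to 4. Scn2a, which encodes a sodium channel that is a main target of tetrodotoxin in cortex, had 328, 341 and 286 CPM in silenced and 388, 201, 320.3 and 222 CPM in basal cultures, which overlapped (0.17, SE 0.24, edgeR BH-adjusted p = 0.727). Of 15 voltage-gated calcium channel genes, the beta subunit gene Cacnb1 rose (0.74, SE 0.18, edgeR BH-adjusted p = 0.0482) and none fell. Cacnb1 was not past FDR without silenced replicate 1, 2 or 3 or without basal replicate 1, 3 or 4 (edgeR BH-adjusted p from 0.0858 to 0.169). Hcn2 was not past FDR without silenced replicate 1 or 3 (edgeR BH-adjusted p from 0.0625 to 0.0662).

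**Figure D3:**
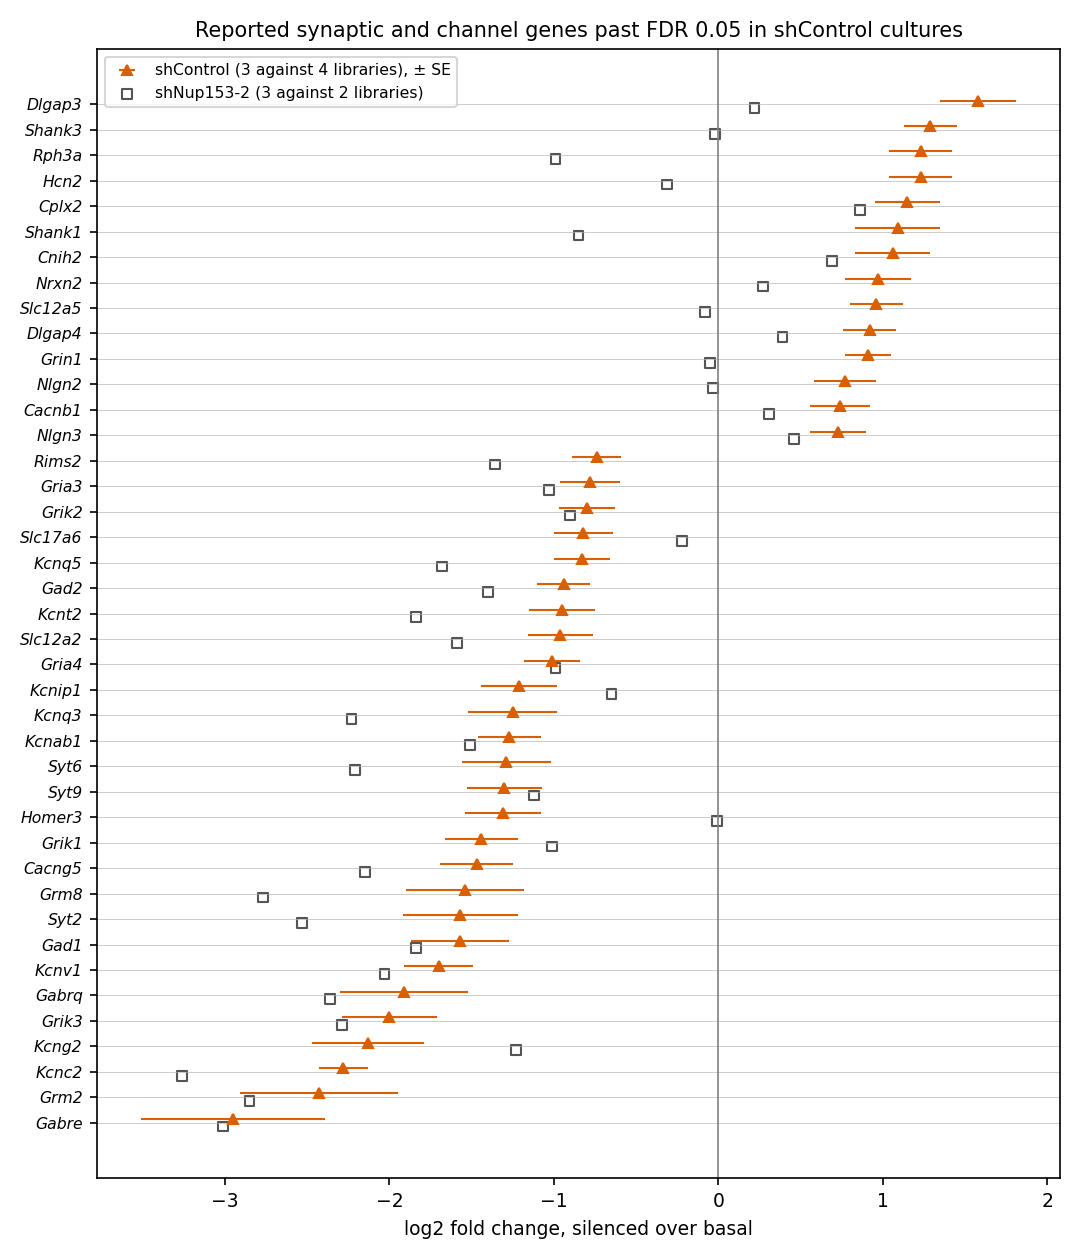
Log2 fold changes, silenced over basal, of reported synaptic and channel genes past FDR 0.05 in shControl cultures, as triangles with ± SE. Open squares are the same contrast in shNup153-2 cultures. Falling genes such as Kcnc2 (-2.28 and -3.26) lie left of 0 with both hairpins, and rising genes such as Shank3 (1.29 and -0.02) often lie near 0 with shNup153-2.

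Of 46 genes of presynaptic vesicle release, 5 fell and 3 rose (median -0.24), against 3.49% lower and 3.13% higher among all genes tested. Cplx2, a complexin that clamps and triggers vesicle fusion, had 660.2, 893 and 694 CPM in silenced and 356, 374, 254 and 368 CPM in basal cultures (1.15, SE 0.20, edgeR BH-adjusted p = 0.0188). Rph3a, which encodes the vesicle protein rabphilin, had 87.2, 78.4 and 93.5 CPM in silenced and 32.1, 40.4, 27.9 and 46.6 CPM in basal cultures (1.23, SE 0.19, edgeR BH-adjusted p = 0.0132). Nrxn2 rose too (0.97). The calcium sensor genes Syt2 (-1.56), Syt6 (-1.29) and Syt9 (-1.29), the active zone gene Rims2 (-0.74) and the glutamate transporter gene Slc17a6 (-0.82) fell. Those that fell numbered 0, 3 and 1 without silenced replicates 1, 2 and 3 in turn, and 1, 5, 1 and 3 without basal replicates 1 to 4. The rises numbered 0, 3 and 0 without silenced replicates 1, 2 and 3 in turn, and 3, 4, 2 and 2 without basal replicates 1 to 4. Cplx2 and Rph3a were not past FDR without silenced replicate 1 or 3 (edgeR BH-adjusted p from 0.0617 to 0.0752).

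Among signalling genes that respond to calcium, few were called. Of 36 genes of the calcineurin, calmodulin kinase and CREB pathway, Crtc1 and Mef2d rose and none fell (median 0.08). Among all genes tested, 3.13% were higher and 3.49% lower. Crtc1, a CREB coactivator that enters the nucleus on activity, had 116, 122 and 109 CPM in silenced and 55.5, 41.2, 54.4 and 46.8 CPM in basal cultures (1.22, SE 0.15, edgeR BH-adjusted p = 0.00643). The transcription factor gene Mef2d had 176, 165 and 151 CPM in silenced and 96.7, 61.6, 89.7 and 78 CPM in basal cultures (1.01, SE 0.18, edgeR BH-adjusted p = 0.0191). Mef2d was not past FDR without silenced replicate 1 or 3 or without basal replicate 4 (edgeR BH-adjusted p from 0.0516 to 0.0977). Of 21 feedback regulators of MAPK and Ras, Dusp8 rose and Dusp4 and Dusp10 fell (median -0.58). Dusp8, a phosphatase of stress kinases, had 156, 140.5 and 201 CPM in silenced and 62.9, 61.1, 56.4 and 69.8 CPM in basal cultures (1.40, SE 0.17, edgeR BH-adjusted p = 0.00561). Crtc1 and Dusp8 stayed past FDR with every library left out. The genes that fell were Dusp4 (-1.26), which acts on ERK, and Dusp10 (-2.04), and falls in this list numbered 0, 0 and 0 without silenced replicates 1, 2 and 3 in turn, and 1, 6, 0 and 1 without basal replicates 1 to 4.

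Glycolytic and hypoxia-response genes supplied many falls and no rise. Of 33 tested, 13 fell and none rose, and the median log2 fold change was -1.07. Enzymes of glycolysis and of lactate formation are encoded by 6 of the 13, namely Pfkl (-1.88), Tpi1 (-0.98), Pgk1 (-1.23), Pgam1 (-0.90), Eno1 (-0.69) and Ldha (-1.07). Pgk1, a step that yields ATP, had 49.5, 60.6 and 48.1 CPM in silenced and 148, 88.2, 152 and 106 CPM in basal cultures (-1.23, SE 0.22, edgeR BH-adjusted p = 0.0205). Pgam1 had 72.2, 72.9 and 75 CPM in silenced and 172, 118, 138 and 119.6 CPM in basal cultures (-0.90, SE 0.17, edgeR BH-adjusted p = 0.0229). Bnip3, a hypoxia-induced gene of mitophagy, had 77.2, 81.5 and 61.6 CPM in silenced and 505, 164, 549 and 232 CPM in basal cultures (-2.30, SE 0.43, edgeR BH-adjusted p = 0.0219). For Pgk1 and Bnip3 the basal group divided, with replicates 1 and 3 higher than replicates 2 and 4. These replicates also stood apart on the first and second principal components. On the first, basal replicates 2 and 4 lay nearer the silenced libraries. On the second, the silenced libraries lay with basal replicates 1 and 3. Ankrd37, a hypoxia-induced gene, had no such division, with 1.66, 1.73 and 1.87 CPM in silenced and 7.35, 7.09, 6.85 and 5.98 CPM in basal cultures (-1.96, SE 0.22, edgeR BH-adjusted p = 0.00551), though antisense neighbours overlap 26.4% of its exons. Slc16a3 (-5.35), a lactate exporter, and Adm (-2.54), adrenomedullin, fell with overlap between the states. P4ha2 (-2.36), Bnip3l (-0.63) and Higd1a (-1.11) were the others. The number that fell was 1, 7 and 1 without silenced replicates 1, 2 and 3 in turn, and 5, 16, 3 and 9 without basal replicates 1 to 4.

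**Figure D4:**
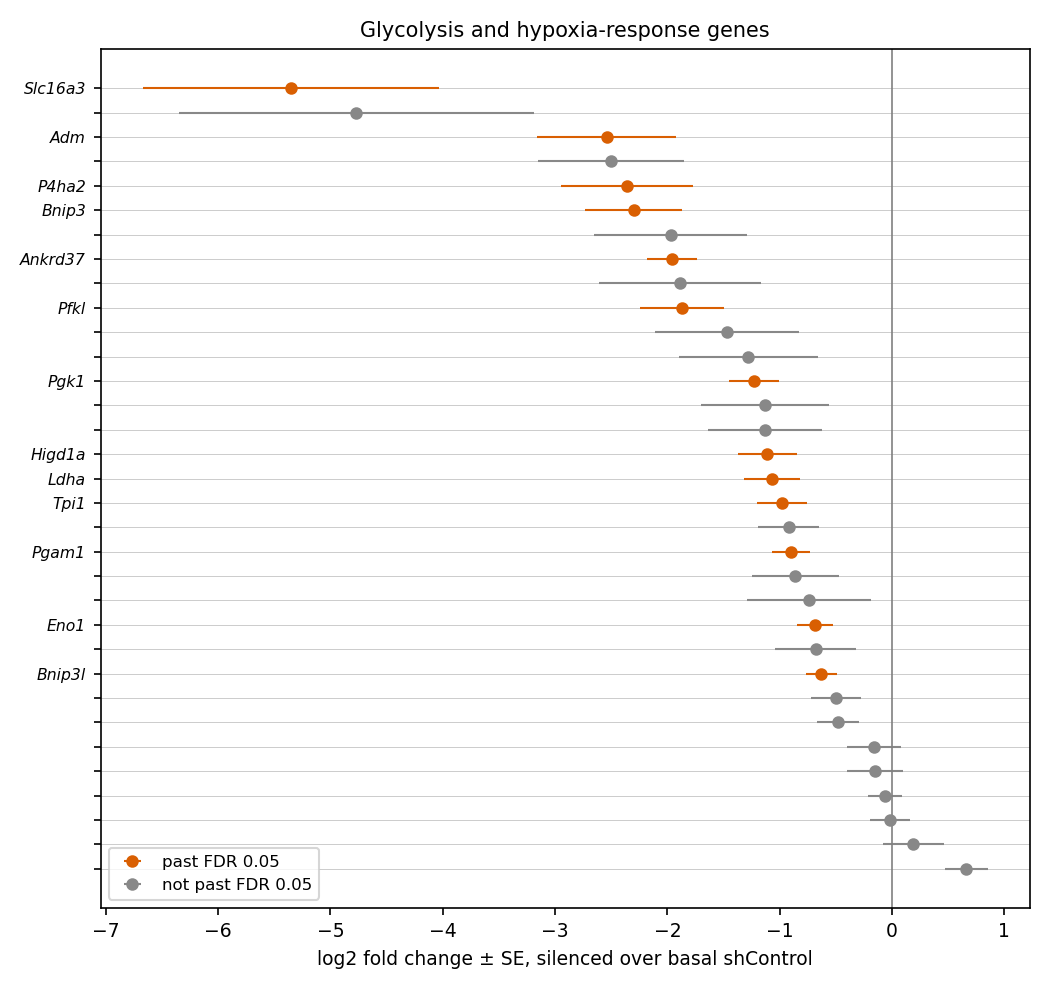
Log2 fold changes with SE, silenced over basal shControl cultures, of the 33 tested glycolysis and hypoxia-response genes. Points past FDR 0.05 are orange and carry their gene names, and the others are grey. Of all points, 31 lie below 0, with Bnip3 at -2.30 and Pgam1 at -0.90.

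Hypoxia-inducible factors bind a core of the letters ACGTG, which is also part of the E-box CACGTG. On either strand of the RefSeq promoters, this core was present for 3395 of 11987 tested genes (28.3%). It was present for 20 of 29 members of the hypoxia and glycolysis list with a promoter in the table (69.0%), whether or not they fell, and for 8 of the 12 such members that fell (66.7%). Among all genes lower in silenced cultures it was present for 130 of 493 (26.4%). The windows of the 4 members with the smallest p are shown on the strand of each gene, with the core in capitals. They lie at chr8:45999839-45999868 (Ankrd37, minus strand), chrX:106186938-106186967 (Pgk1, plus strand), chr7:138909596-138909625 (Bnip3, minus strand) and chr19:41911745-41911774 (Pgam1, plus strand), in GRCm38.p6.
Ankrd37: cagtgtttgggtACGTGaggccgcagcggg
Pgk1: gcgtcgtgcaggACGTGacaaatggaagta
Bnip3: cgcacgcgccgcACGTGccacacgctcccc
Pgam1: cgctccttgcttACGTGcgctccgtgactg
A match of these letters is a description and does not show that a factor binds there.

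Other metabolic lists held few calls. No gene of cholesterol synthesis (24 tested, median 0.12), of the unfolded protein and integrated stress response (31 tested, median -0.06), of the nuclear-encoded respiratory chain (66 tested, median -0.16) or of the mitochondrial genome (13 tested, median 0.10) passed the edgeR test. The respiratory chain list summed to 9760, 10200 and 10100 CPM in silenced and 7810, 16000, 7600 and 12100 CPM in basal libraries, with basal replicates 2 and 4 highest of all. Of 53 cytosolic ribosomal protein genes, Rpl15 alone rose (0.66, SE 0.15, edgeR BH-adjusted p = 0.0397), and 48 had a log2 fold change above 0 (median 0.28). In all, 16 of the 53 lay higher without overlap, against 12.2% of all genes tested. Rpl15 was not past FDR without silenced replicate 1, 2 or 3 or without basal replicate 1, 3 or 4 (edgeR BH-adjusted p from 0.057 to 0.164). No perineuronal net or matrix gene passed (19 tested, median -0.41), though 4 fell without basal replicate 2, namely Timp1, Vcan, Adamts1 and Hapln3, and Hapln1 fell without silenced replicate 2.

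Antigen presentation and clock genes were among the other falls. Of 20 interferon response and antigen presentation genes tested, of 32 in the list, 3 fell and none rose (median -0.92). H2-K1, the heavy chain of class I presentation, had 2.96, 6.96 and 2.59 CPM in silenced and 60.6, 10.8, 77.3 and 27.7 CPM in basal cultures (-3.40, SE 0.69, edgeR BH-adjusted p = 0.0272). Tap1, the peptide transporter of that pathway, changed by -1.69 (SE 0.39, edgeR BH-adjusted p = 0.0378), and the RNA sensor gene Ifih1 by -2.53 (SE 0.41, edgeR BH-adjusted p = 0.0141). These falls numbered 0, 3 and 0 without silenced replicates 1, 2 and 3 in turn, and 1, 5, 1 and 2 without basal replicates 1 to 4. Of 19 clock genes, the repressors Cry1 and Bhlhe40 fell and none rose (median -0.51). Cry1 (chromosome 10, 85131700 to 85185064) had 27.3, 20.6 and 24.1 CPM in silenced and 57.5, 65.5, 58.3 and 61.9 CPM in basal cultures (-1.34, SE 0.15, edgeR BH-adjusted p = 0.00551), and it stayed past FDR with every library left out. Bhlhe40 changed by -1.12 (SE 0.25, edgeR BH-adjusted p = 0.0341), and clock falls numbered 1, 4 and 1 without silenced replicates 1, 2 and 3 in turn, and 1, 3, 1 and 1 without basal replicates 1 to 4. The labels give no time of day for the collection of RNA.

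Among 18 nuclear pore and histone deacetylase genes, Hdac5 rose and Hdac9 fell (median 0.03), against 3.13% higher and 3.49% lower among all genes tested. Hdac5, a deacetylase that leaves the nucleus on activity, had 134, 128 and 146 CPM in silenced and 63.6, 92.6, 71.3 and 99.3 CPM in basal cultures (0.74, SE 0.18, edgeR BH-adjusted p = 0.0488). Hdac9, of the same class, had 28.9, 20.4 and 31.1 CPM in silenced and 56.5, 63.7, 58.8 and 46.1 CPM in basal cultures (-1.07, SE 0.19, edgeR BH-adjusted p = 0.0205). Hdac1, the deacetylase named in the title of the series, had 15.7, 20.6 and 18.1 CPM in silenced and 11.5, 14.5, 13.3 and 14.1 CPM in basal cultures. Its groups did not overlap, but the log2 fold change missed the threshold (0.44, SE 0.17, edgeR BH-adjusted p = 0.157). Hdac5 was not past FDR without silenced replicate 1, 2 or 3 or without basal replicate 1, 3 or 4 (edgeR BH-adjusted p from 0.0591 to 0.174). Hdac9 was not past FDR without silenced replicate 1 or 3 or without basal replicate 3 (edgeR BH-adjusted p from 0.051 to 0.0924).

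Markers of excitatory subtypes moved both ways. Of 18 tested, Cux2 and Neurod2 rose, and Fezf2, Tle4 and Slc17a6 fell (median 0.07). Cux2, a factor of upper cortical layers, had 113, 86.7 and 125 CPM in silenced and 42.8, 19.2, 36.4 and 31.3 CPM in basal cultures (1.74, SE 0.26, edgeR BH-adjusted p = 0.0115). Fezf2, a factor of deep-layer projection neurons, had 2.44, 2.24 and 4.65 CPM in silenced and 12.8, 19.4, 15.2 and 16.1 CPM in basal cultures (-2.35, SE 0.31, edgeR BH-adjusted p = 0.00732). Tle4, a marker of layer 6, had 22.7, 19.2 and 14 CPM in silenced and 48.3, 39.8, 62.5 and 38.8 CPM in basal cultures (-1.35, SE 0.24, edgeR BH-adjusted p = 0.0187). The libraries of the 2 states did not overlap for any of these 3. They are named for their small p, so this follows in part from the choice. Among all genes tested, 12.2% lay higher and 10.9% lower without overlap. Rises among the 18 markers numbered 0, 2 and 1 without silenced replicates 1, 2 and 3 in turn, and 2, 2, 1 and 1 without basal replicates 1 to 4. Falls among them numbered 0, 2 and 1 without silenced replicates 1, 2 and 3 in turn, and 2, 3, 2 and 2 without basal replicates 1 to 4.

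Astrocyte, vascular and microglial markers were measured as well. Of 20 astrocyte markers, Clu fell (-1.23, SE 0.25, edgeR BH-adjusted p = 0.0284) and none rose (median -1.19). Clu was not past FDR without silenced replicate 1 or 3 or without basal replicate 1, 3 or 4 (edgeR BH-adjusted p from 0.0576 to 0.135). Their summed level was 1120, 3630 and 498 CPM in silenced and 5500, 2020, 3610 and 4140 CPM in basal libraries, so silenced replicate 2 lay within the basal range. Gfap, the intermediate filament of astrocytes, had 1.07, 1.82 and 0.16 CPM in silenced and 90.3, 1.66, 149.6 and 10.6 CPM in basal libraries, and overlapped (-5.96, SE 1.54, edgeR BH-adjusted p = 0.0541). Of 11 endothelial, mural and fibroblast markers tested, of 18 in the list, Kdr (-3.93), Flt1 (-2.60) and Rgs5 (-1.69) fell (median -0.98), and these falls numbered 0, 1 and 0 without silenced replicates 1, 2 and 3 in turn, and 0, 3, 2 and 0 without basal replicates 1 to 4. Of 13 microglia markers, only 6 had a symbol in both count tables. Of those 6, 2 held enough counts to be tested, and neither passed. Their part, and that of the interneuron, oligodendrocyte and proliferating markers, in the other differences, such as those of channel and synaptic genes, was not tested.

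Predicted and clone-named genes were unequally divided between the directions. Of 4603 tested, 182 were higher (3.95%) and 60 lower (1.30%), whereas of 14341 genes with other names 411 were higher (2.87%) and 602 lower (4.20%). Of 635 loci that GENCODE M21 marks as still to be experimentally tested (TEC), 74 were higher (11.7%) and 5 lower (0.787%). Processed pseudogenes numbered 77 higher and 34 lower of 1935. Of the 91 genes that stayed past FDR with every library left out, many carry predicted or clone names, and most of those were higher. Gm13340, an unprocessed pseudogene singled out after its values were seen, had 55.1, 80.2 and 57.8 CPM in silenced and 12.1, 8.53, 7.42 and 10.5 CPM in basal cultures (2.73, SE 0.22, edgeR BH-adjusted p = 0.0024). Reads of a pseudogene can be shared with its parent gene. Of 73 higher TEC loci tested in shNup153-2 cultures, 71 had a positive log2 fold change there too. The state of the cultures and the deposited table cannot be told apart for these loci either.

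The same contrast was available in libraries that share none of the 7, 3 silenced and 2 basal cultures with the hairpin shNup153-2. There too the state follows the table, so agreement does not separate treatment from table. In those cultures 3720 of 20130 genes were higher (18.5%) and 3994 lower (19.8%). Of 1255 genes called with shControl, 1244 were tested with shNup153-2 and 1178 had the same sign (94.7%), against 74.1% of 18647 genes tested with both. By direction, 537 of 591 higher genes and 641 of 653 lower genes had the same sign. Immediate early genes fell in 25 of 34 cases with shNup153-2, against 3 of 34 with shControl. Fos stood at 1.58, 2.03 and 1.21 CPM in silenced and 32 and 49.4 CPM in basal shNup153-2 cultures, and Bdnf at 4.06, 4.31 and 4.76 CPM in silenced and 30.6 and 68.7 CPM in basal ones. Basal shControl cultures had 3.88 to 9.71 CPM of Bdnf. Glycolysis and hypoxia genes fell in 22 of 33 cases with shNup153-2 and interneuron markers in 15 of 20, against 13 and 7 with shControl. The median log2 fold changes of these 2 lists were no larger, at -0.97 and -1.02 with shNup153-2 and -1.07 and -1.15 with shControl. For immediate early genes the medians were -1.81 and -0.41. Ribosomal protein genes rose in 38 of 53 cases and respiratory chain genes in 36 of 66, against 1 and 0 with shControl. Their medians were 0.73 and 0.43 with shNup153-2, against 0.28 and -0.16 with shControl. Other lists had a different balance of calls. Of the 34 postsynaptic density genes, 3 rose and 14 fell with shNup153-2, against 7 and 1 with shControl. Of the 31 genes of the unfolded protein and integrated stress response, 21 fell with shNup153-2, against none with shControl. These differences between the hairpins in list counts were not tested.

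For several synaptic genes that rose with shControl, the value with shNup153-2 lay near 0. Shank3 had log2 fold changes of 1.29 with shControl and -0.02 with shNup153-2, and Grin1 of 0.91 and -0.05. Dlgap3 (1.58 and 0.22), Slc12a5 (0.96 and -0.08) and Mef2d (1.01 and -0.07) gave similar pairs of values, and Rph3a had opposite signs (1.23 and -0.99). In shNup153-2 cultures Shank3 stood at 235, 246 and 181 CPM when silenced and 216 and 230.0 CPM at basal state, all above the silenced shControl libraries. The difference between the contrasts was tested in an edgeR fit of the 12 libraries, added after these values were seen. Of 20926 genes, none passed FDR 0.05 for this difference, and 2391 had an unadjusted p under 0.05. It was 2.22 (SE 0.323, edgeR BH-adjusted p = 0.0572) for Rph3a, 1.31 (SE 0.238, edgeR BH-adjusted p = 0.101) for Shank3, 0.96 (SE 0.176, edgeR BH-adjusted p = 0.101) for Grin1 and 0.99 (SE 0.251, edgeR BH-adjusted p = 0.206) for Kcnc2. These values do not show that the hairpins act alike.

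**Figure D5:**
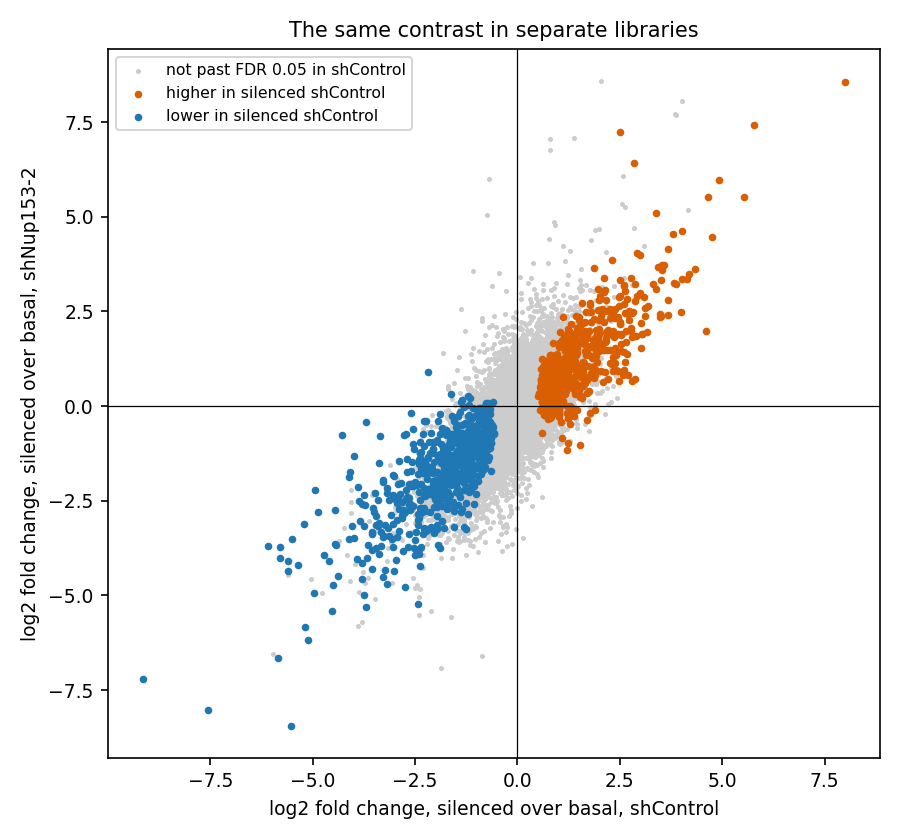
Log2 fold change, silenced over basal, in shNup153-2 cultures (vertical axis) against shControl cultures (horizontal axis), 1 point per gene tested with both. Orange and blue points are genes higher or lower in silenced shControl cultures at FDR 0.05, and 1178 of the 1244 shown lie in the quadrants of equal sign.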

How the data were processed

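Poly(A) RNA of 3 silenced and 4 basal shControl cultures was sequenced from strand-specific libraries. The deposited tables hold raw counts per gene symbol, made by the authors with featureCounts 2.0.1 on mm10 after FastQC, per the submitters' processing notes. The aligner, annotation and strand setting were not given in the sources used here, so reads of antisense neighbours, which overlap over 10% of the exons of Bdnf, Grin1, Icam1, Ccn2, Nrn1, Homer3, Ankrd37 and Bnip3, cannot be told apart from the gene's own. The tables were joined on symbol. The 28933 symbols found in the silenced table alone, with at most 0.147% of a library's counts, were not tested, Aldoa among them. At basal state, 2 columns with the same name were assigned to no sample and not used.

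Genes were kept by filterByExpr (minimum count 10), scaled by TMM and tested with the quasi-likelihood test of edgeR 4.0.16 in R 4.3.3, with Benjamini-Hochberg adjustment over all 18944 genes and FDR 0.05, in a fit of the 7 libraries. CPM values use TMM-scaled totals. In data simulated for this comparison, edgeR found 67 of 97 genes changed by 2 on the log2 scale and 12 of 97 changed by 1, so smaller changes can be missed. Alternatives used DESeq2 1.42.0, limma 3.58.1, other scalings and filters, and libraries left out. Coordinates and exon overlaps are from GENCODE M21 and promoters from RefSeq (GRCm38.p6).

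The comparison and the 31 gene lists were chosen with earlier results of these data known. Named genes were 14 anchors, the 12 largest rises and falls past FDR with no overlap whose higher group averaged 5 CPM or more, without predicted or clone names, and up to 4 members of each list with the smallest p. Further list members are named to complete a count. No replicate was a copy of another. A few genes that the rule selects are not reported here.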

Additional observations from a re-analysis of the deposited data

Results flagged for a closer look

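In 9 of 180 groups of 4 basal libraries, 1 library stood apart from the other 3 by Dixon's ratio, where chance gives about 1 in 20. In basal replicate 4, Mki67 was at 2.30 CPM, Cdk1 at 0.598, Aurkb at 0.377 and Gpr17 at 0.157, all highest of the 4, and the proliferating progenitor markers averaged 2.50 log2 CPM, against 1.42 to 1.56 in the other basal libraries. In basal replicate 2, Abhd11os was lowest at 2.19 CPM and Cacna1g at 58.6 CPM. In basal replicate 3, Cplx2 was lowest at 254 CPM. The total of basal replicate 1, 56299817 counts, was the highest.

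For 4 named genes all silenced libraries lay above all basal ones with shControl and below all basal ones with shNup153-2. The log2 fold changes with shControl and shNup153-2 were 0.69 and -0.57 for Cacna1a, 1.23 and -0.31 for Hcn2, 1.23 and -0.99 for Rph3a, and 0.74 and -0.34 for Hdac5. In the fit of 12 libraries, the difference did not pass FDR 0.05 for any of them, with edgeR BH-adjusted p-values of 0.16 for Cacna1a, 0.093 for Hcn2, 0.0572 for Rph3a and 0.162 for Hdac5.

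Among symbols found in the silenced table alone, 77 had more than 3 counts in each of the 3 silenced shControl libraries. Aldoa, a glycolytic enzyme, was the one examined, with 22830, 27977 and 23949 counts, and it has no basal value here.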

How the results depend on the processing

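With 593 genes higher, 662 lower and 1178 called genes of equal sign with shNup153-2, counts moved by over 1.5 times in these cases. DESeq2 gave 1113, 1486 and 2435, the fit with the shNup153-2 libraries 1274, 1312 and 2385, limma-voom with library weights, added after seeing the data, 1665, 1982 and 3237, and glmTreat against a 1.5-fold change, a stricter question by construction, 84, 115 and 196. Leaving out 1 library gave 52 to 666 higher, 44 to 1077 lower and 93 to 1663 of equal sign. Same-numbered libraries correlated at 0.13, -0.23 and -0.24 in their deviations, so the numbers do not pair the cultures, and the replicate block gave 0, 0 and 0, with 3441 genes at an unadjusted p under 0.05 in edgeR. The block adds terms to a fit of 7 libraries, and basal replicate 4 has no silenced library of its number. The counts of 0 therefore do not show an effect of pairing, and their cause was not tested. RLE and upper-quartile scaling, limma-voom, both other filters and removal of the transcript length trend stayed within 1.5 times. No called gene of the 1255 changed sign under any alternative. Of the uncalled named genes, Arc was at 0.05 without silenced replicate 3, in a range of -0.68 to 0.05, and Eif2s3y at 0.25 with the replicate block and 0.23 without basal replicate 4, in a range of -0.33 to 0.23 over libraries left out. With so few libraries and so wide a spread between basal replicates, small changes can be missed, as the simulated recovery shows.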
